A study of Mus musculus with 8 samples.

Results

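The 10 core genes of the circadian clock were followed in stromal cells of mouse small intestine: Arntl (also written Bmal1), Clock and Npas2, Per1, Per2 and Per3, Cry1 and Cry2, and Dbp and Tef. They were taken by symbol from a table of 53801 genes, and all 10 had a row. RNA had been sequenced from cells without CD45, a marker of blood cells, and without CD31, a marker of endothelium, sorted from LTβRYFP mice into a YFP+ and a YFP- fraction of 4 libraries each. LTβR is the lymphotoxin beta receptor, and all 8 libraries come from the same mouse line. The labels used here state no driver of YFP, age, time of day or pooling of animals. A library was placed in YFP+ or YFP- by its description, which its genotype matches. Its title carries the opposite sign, in all 8 cases. Had the titles been used instead, each direction between YFP+ and YFP- below would be inverted, but no comparison between replicate numbers would change.

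The clock is a loop of transcription found in most cells of the body. ARNTL pairs with CLOCK or NPAS2 and binds E-box sequences in DNA, which switches on the Per and Cry genes. PER and CRY proteins then gather, enter the nucleus and inhibit the pair, and as they decay the loop starts again about once a day. The same E-boxes drive output genes such as Dbp and Tef, whose proteins bind D-box sequences, and the receptor genes Nr1d1 and Nr1d2, whose proteins repress Arntl. Per1 and Per2 are also induced within a short time by signals that act on early-response genes.

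E-boxes were read from RefSeq promoter sequences on GRCm38.p6, each window reaching from 250 bases before a start to just after it. Windows were available for 9 of the 10 members, all but Per2. The E-box CACGTG, which reads the same on both strands, was present in a window of Per1, Cry1 and Tef, and in 7.15% of all 32851 windows. The next sequences are the 250 bases before a start, 5′ to 3′ on the gene's strand, with E-boxes in capitals. They are shown because Per1 and Tef, which both hold an E-box here, were at opposite ends of the range in the same libraries (given below), while Cry1 passed neither test. Ciart, a repressor of the ARNTL and CLOCK pair and no member, is added after its values were seen for its 3 E-boxes.
Per1: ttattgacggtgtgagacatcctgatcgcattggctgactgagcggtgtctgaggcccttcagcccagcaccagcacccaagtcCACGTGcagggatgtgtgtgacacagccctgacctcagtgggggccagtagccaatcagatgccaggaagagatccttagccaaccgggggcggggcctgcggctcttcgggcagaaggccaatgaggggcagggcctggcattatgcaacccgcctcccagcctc
Cry1: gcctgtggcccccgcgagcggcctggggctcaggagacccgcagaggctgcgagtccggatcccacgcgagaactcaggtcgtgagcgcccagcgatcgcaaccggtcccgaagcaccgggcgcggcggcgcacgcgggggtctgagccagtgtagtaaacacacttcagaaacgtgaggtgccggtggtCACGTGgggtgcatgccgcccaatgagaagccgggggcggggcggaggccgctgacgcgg
Tef: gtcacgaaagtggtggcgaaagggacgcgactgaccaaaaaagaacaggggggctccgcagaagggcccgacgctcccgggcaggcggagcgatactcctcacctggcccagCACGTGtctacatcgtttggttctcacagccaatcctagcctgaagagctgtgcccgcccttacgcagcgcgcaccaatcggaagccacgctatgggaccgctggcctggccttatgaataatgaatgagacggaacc
Ciart: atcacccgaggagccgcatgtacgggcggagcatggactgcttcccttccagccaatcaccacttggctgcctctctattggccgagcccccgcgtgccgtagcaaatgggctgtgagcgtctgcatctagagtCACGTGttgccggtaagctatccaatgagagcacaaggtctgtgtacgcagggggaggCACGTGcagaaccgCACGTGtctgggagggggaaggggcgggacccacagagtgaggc
The Per1 stretch lies at chr11:69098699-69098948 on the plus strand and its E-box begins 166 bases before the start. The Cry1 stretch lies at chr10:85185055-85185304 on the minus strand (E-box 60 bases before the start), and that of Tef at chr15:81811164-81811413 on the plus strand (138 bases). The Ciart stretch lies at chr3:95882229-95882478 on the minus strand, with E-boxes 116, 58 and 44 bases before the start. A further window of Per1 held no CACGTG, while a further window of Tef did. The windows of Arntl, Clock, Npas2, Cry2, Dbp and Per3 held no CACGTG. Nor did those of Usp2, Nr1d1, Nr1d2, Nfil3 and Nampt, which were called between replicate numbers (given below). Wee1 and Bhlhe40, also called there, had no window to read. The variant CACGTT, on either strand, lay in a window of Cry1, Cry2, Nr1d1 and Rorb, and in 4.68% of all windows. A match of letters is a description and was not measured as binding.

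The YFP+ libraries held 23404630 to 29829232 counts and the YFP- libraries 23272858 to 28688906. Mitochondrial genes took 4.13 to 4.86% of counts in YFP+ and 5.2 to 7.38% in YFP-, and a fit without mitochondrial and ribosomal RNA genes called 0 members, 1 other clock gene and 674 genes in all between the gates, against 0, 1 and 697 with them. Levels are given as CPM, counts scaled to a common library total after trimmed-mean (TMM) normalisation. Pdgfra, a fibroblast marker, lay between 877 and 1183 CPM (YFP+) and between 1007 and 1101 CPM (YFP-), but the summed level of 7 fibroblast genes was lower in YFP+, at 34130 to 37860 CPM, against 39340 to 46490 CPM in YFP-. Of the 7, 2 were called lower, or 5 with the replicate number as a block, Dcn among the 2 (log2 fold change -0.33, edgeR adjusted p = 0.043). Ptprc, which encodes CD45, lay between 0.535 and 6.22 CPM (YFP+) and between 0.907 and 5.66 CPM (YFP-). Pecam1, which encodes CD31, lay between 2.63 and 7.07 CPM (YFP+) and between 5.11 and 11.8 CPM (YFP-). Ltbr, which encodes LTβR, lay between 55.4 and 58.2 CPM (YFP+) and between 42.5 and 57.1 CPM (YFP-). It was not called between the gates (log2 fold change 0.11, edgeR adjusted p = 0.654). All 10 glial markers were detected, and their summed level was 9.72 to 12.9 CPM in YFP+ and 147 to 240.0 CPM in YFP-. In such bulk samples fewer cells of a type and less RNA per cell cannot be told apart.

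Of the 10 members 9 could be tested, since Per3 was listed at 0 in all 8 libraries. Rpl13, a ribosomal protein gene, Sumo3, and Vamp3, the neighbour of Per3 on chromosome 4, were also listed at 0, so the 0 of Per3 is not read as a level. Per unit of exon length, Per1 and Npas2 stood highest, with means over the 8 libraries of 34.9 and 31.1 CPM per kb and overlapping ranges. Arntl (20.2 CPM per kb) and Cry1 (19.9) followed, then Cry2 (12.55), Clock (11.3) and Per2 (8.83), and last Tef (3.32) and Dbp (1.75). The range of Per1 also overlapped those of Arntl and Cry1, which overlapped each other. The ranges of Cry2, Clock and Per2 overlapped as well. Those of Npas2 and Arntl, Cry1 and Cry2, Per2 and Tef, and Tef and Dbp did not.

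No core clock gene passed the test between the gates. By edgeR's quasi-likelihood test 0 of 9 tested members passed at an adjusted p of 0.05 in either direction, where 4.26% of all 16354 tested genes did (0.917% higher and 3.34% lower in YFP+), and 0 of 9 had an unadjusted p under 0.05, against 15.1% of all genes. DESeq2 and limma-voom also called 0. The median log2 fold change of the 9 was -0.02, against 0.00 over all genes tested. With the replicate number as a block, 0 members passed as well, where 11.5% of genes did, and 2 of 9 had an unadjusted p under 0.05, near the 22.8% of all genes. In the authors' deposited table the lowest adjusted p of a member was that of Npas2, 0.107.

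Of the activators, Arntl and Clock had the narrowest ranges between replicate numbers of all 9 tested members. Arntl, the partner without which the loop stops, had 143, 149, 147 and 156 CPM in YFP+ replicates 1 to 4 and 148, 160, 159 and 155 CPM in YFP-. All 8 values lay close together and the fractions overlapped. The log2 fold change was -0.06 (95% interval -0.22 to 0.09, edgeR adjusted p = 0.749). Clock, which encodes its usual partner, had 155, 156, 153 and 150.0 CPM in YFP+ and 158, 153, 148 and 165 CPM in YFP-, again with overlap. Its log2 fold change was -0.02 (95% interval -0.18 to 0.13, edgeR adjusted p = 0.926). For both genes the interval ends within 0.22 of no change on the log2 scale.

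Npas2 (chromosome 1, 39193731 to 39363236, plus strand), whose protein can stand in for CLOCK, was the activator that varied. It had 140.2, 149, 112 and 158 CPM in YFP+ and 159, 177, 139 and 157 CPM in YFP-. The library numbered 3 was the lowest of each fraction, and YFP+ was the lower in 3 of 4 same-numbered pairs, with differences from -0.31 to 0.02 on the log2 scale. YFP+ libraries averaged 139.8 ± 20.1 CPM, against 158 ± 15.9 CPM for YFP- (SD over 4 libraries each). The log2 fold change was -0.18 (SE 0.11, edgeR adjusted p = 0.480). With the block it was -0.18 (SE 0.06, 95% interval -0.31 to -0.06), and the edgeR adjusted p was 0.0547, the lowest of the members.

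Per1 and Per2, inducible repressors of the loop, had the widest ranges between replicate numbers among the tested members. Per1 (chromosome 11, 69095217 to 69109960, plus strand) had 234, 114, 202.5 and 226.5 CPM in YFP+ and 237, 127, 193.5 and 238 CPM in YFP-. The library numbered 2 was far below the others in both fractions, and the other libraries of both fractions overlapped. YFP+ libraries averaged 194 ± 55.1 CPM, against 199 ± 52.3 CPM for YFP- (SD over 4 libraries each). The log2 fold change between gates was -0.03 with an SE of 0.29 without the block and -0.04 with an SE of 0.06 with it (edgeR adjusted p = 0.979 and 0.719). Per2 (chromosome 1, 91415982 to 91459324, minus strand) had 81.7, 35.4, 50.9 and 53.4 CPM in YFP+ and 65.4, 29.9, 52.6 and 44.1 CPM in YFP-. Number 2 was again lowest and number 1 highest in each fraction. YFP+ libraries averaged 55.4 ± 19.3 CPM, against 48.0 ± 14.9 CPM for YFP- (SD over 4 libraries each). YFP+ was the higher in 3 of 4 pairs, and the log2 fold change was 0.21 (SE 0.32, edgeR adjusted p = 0.830). With the block it was 0.20 (SE 0.08, 95% interval 0.03 to 0.36, edgeR adjusted p = 0.123). In the fit with no block, the Per2 value was -0.04 without YFP+ replicate 1.

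The Cry genes, which encode the partners of PER, did not pass the test. Cry1 had 70.5, 54.9, 74.2 and 64.1 CPM in YFP+ and 64.7, 64.5, 75.6 and 63.4 CPM in YFP-. The highest library of each fraction was number 3. Cry2 had 75.3, 86.0, 85.9 and 74.0 CPM in YFP+ and 73.3, 77.5, 85.9 and 76.7 CPM in YFP-, with overlap in full. Their log2 fold changes were -0.02 (95% interval -0.24 to 0.19) and 0.04 (95% interval -0.15 to 0.22), with edgeR adjusted p of 0.949 and 0.902.

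Of the output genes, Dbp had the largest estimate among the members and the lowest counts, 71 to 207 per library. It had 5.47, 6.004, 6.78 and 5.82 CPM in YFP+ and 3.71, 6.45, 3.07 and 4.53 CPM in YFP-. YFP+ was the higher in 3 of 4 pairs, the exception being number 2, and the fractions overlapped. YFP+ libraries averaged 6.02 ± 0.552 CPM, against 4.44 ± 1.47 CPM for YFP- (SD over 4 libraries each). Without the block the log2 fold change was 0.44 (95% interval -0.08 to 0.95, edgeR adjusted p = 0.434). With the block it was 0.48 (SE 0.235, edgeR adjusted p = 0.225). Neither no change nor a change of that size can be set aside. Exons of Sphk2 on the opposite strand cover 18.0% of Dbp's exon bases, and the strand setting of the counting is not given in the sources used here. Tef (chromosome 15, 81802421 to 81826863, plus strand), which encodes a close relative of DBP, had 21.9, 35.7, 23.9 and 23.7 CPM in YFP+ and 25.1, 31.6, 22.6 and 24.5 CPM in YFP-. Both libraries numbered 2 were above all others, and the log2 fold change between gates was 0.02 (SE 0.15, edgeR adjusted p = 0.978).

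**Figure D1:**
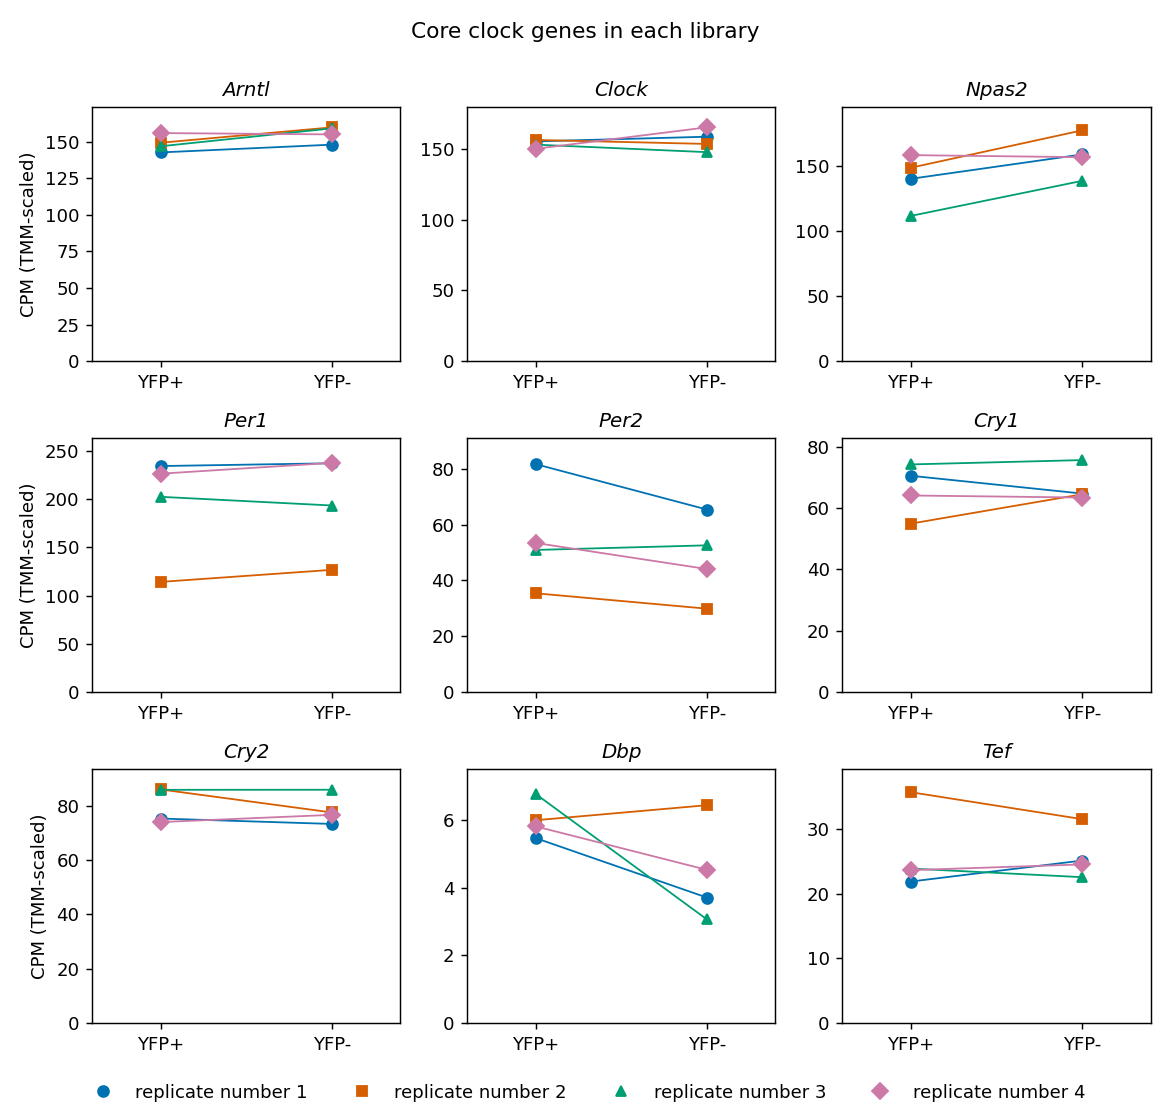
CPM of the 9 detected core clock genes in each library (vertical axes, from 0), YFP+ left and YFP- right; points are single libraries, and lines join libraries with the same replicate number. Number 2 is lowest for Per1 (114 CPM in YFP+ and 127 CPM in YFP-) and highest for Tef in both fractions, while Arntl and Clock are flat.

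Libraries with the same replicate number deviated together across the genome, in the correlations of 0.39 to 0.63 described with the processing, and were compared as pairs. The test asked whether a gene's level differed among the 4 numbers once the gate was accounted for. It called 4 of 9 members, Per1, Per2, Npas2 and Tef, where it called 9.2% of all 16354 tested genes. The same 4 were called by DESeq2 and limma-voom. The median log2 range between the highest and the lowest number was 0.38 for the 9 members, against 0.41 over all genes tested.

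Per1 and Per2 had the widest ranges. The geometric mean of a number's pair of libraries was 236, 120.4, 198 and 232 CPM for Per1 in numbers 1 to 4, a range of 0.97 on the log2 scale (edgeR adjusted p = 2.2e-08). The highest number was 1.96 times the lowest. For Per2 the means were 73.1, 32.5, 51.8 and 48.5 CPM, a range of 1.17 (edgeR adjusted p = 1.57e-06). Here number 2 was low, number 1 was high, and the other 2 numbers lay between. Tef ran the other way, at 23.5, 33.6, 23.2 and 24.1 CPM (range 0.53, edgeR adjusted p = 0.0266). Npas2 was set apart by number 3, at 149, 162, 124 and 158 CPM (range 0.38, edgeR adjusted p = 0.0157).

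The remaining members did not pass. Dbp was highest in number 2, with 4.51, 6.22, 4.56 and 5.14 CPM (range 0.49, edgeR adjusted p = 0.722). Cry1 had 67.5, 59.5, 74.9 and 63.7 CPM (range 0.33, edgeR adjusted p = 0.141), and Cry2 had a range of 0.21 (edgeR adjusted p = 0.331). Arntl (range 0.10) and Clock (range 0.07) had edgeR adjusted p of 0.810 and 0.926. For 5 of 9 members, Npas2, Per1, Per2, Cry1 and Tef, both libraries of 1 number were the lowest or the highest pair of values among the 8, which held for 32.2% of all tested genes.

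Not all of these calls held without single libraries. Per2 was called in all 12 fits that left out 1 library or 1 number. Per1 was called in 11 of 12, the exception being the fit without number 2, where its range was 0.25 (edgeR adjusted p = 0.0613). Tef was called in 5 of 12 and had a range of 0.05 without number 2 (edgeR adjusted p = 0.983) and 0.41 without YFP+ replicate 2 (edgeR adjusted p = 0.425). It also lost its call without YFP+ replicate 1, 3 or 4 and without YFP- replicate 2 or 3, where its range was 0.52 to 0.64 and the edgeR adjusted p was 0.0537 to 0.0647. Npas2 was called in 9 of 12 and lost its call without number 3 (range 0.12, edgeR adjusted p = 0.689), without YFP+ replicate 3 (range 0.30, edgeR adjusted p = 0.373) and without YFP- replicate 3 (range 0.46, edgeR adjusted p = 0.0807).

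**Figure D2:**
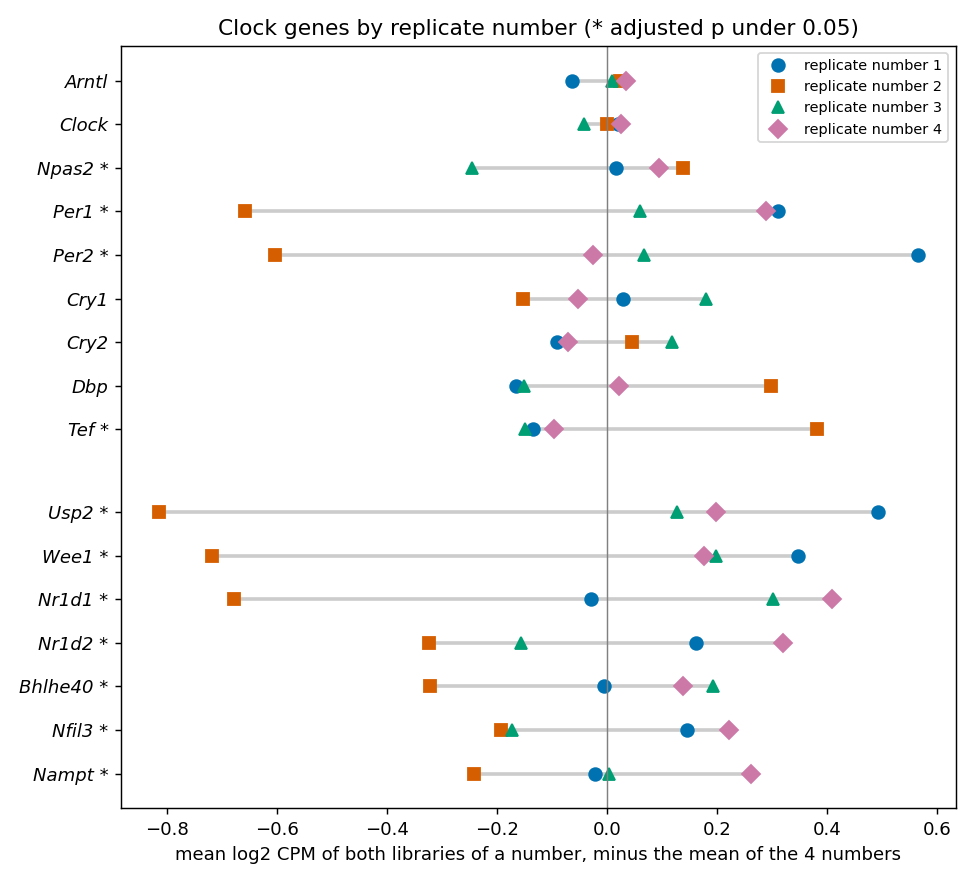
Mean log2 CPM of both libraries of each replicate number, minus the mean of the 4 numbers (horizontal axis), for the 9 members (upper block) and the 7 other clock genes called between numbers (lower block); points are numbers 1 to 4, and stars mark an edgeR adjusted p under 0.05. Number 2 lies lowest for Per1, Per2, Cry1 and all 7 other genes and highest for Tef, Dbp and Npas2.

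**Figure D3:**
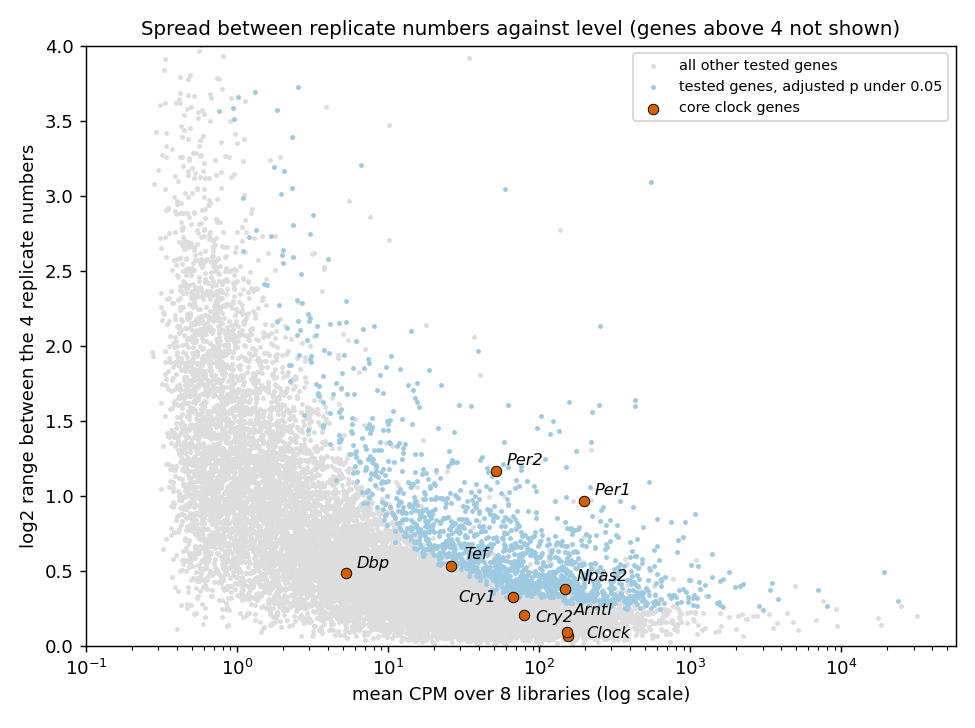
Log2 range between the 4 replicate numbers (vertical axis) against mean CPM over the 8 libraries (horizontal axis, log scale) for the tested genes, with core clock genes in orange and genes past an edgeR adjusted p of 0.05 in blue; 54 genes with a range above 4 are off the plot. Per1 (0.97) and Per2 (1.17) lie above most genes of their level, and Arntl (0.10) and Clock (0.07) lie near the bottom.

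The wider clock pathway was read from 20 further genes, a list chosen with earlier results of these data known, and 19 were tested. Of these, 7 were called between replicate numbers, against the 9.2% of all genes, and all 7 had their lowest pair mean in number 2, as did 43.3% of the 1504 genes called. Nfil3 was nearly level in numbers 2 and 3, at 106 and 108 CPM, and in YFP+ number 3 was its lowest library. Usp2, which encodes a deubiquitinase and is an output of the loop, had 32.5, 11.4, 22.7 and 27.8 CPM in YFP+ and 34.3, 16.0, 29.6 and 26.7 CPM in YFP- (range 1.30, edgeR adjusted p = 2.77e-05). Wee1, a cell-cycle kinase gene under E-box control, had 22.5, 12.2, 19.4 and 20.1 CPM in YFP+ and 23.7, 10.01, 22.4 and 21.04 CPM in YFP- (range 1.06, edgeR adjusted p = 5.01e-04). In both genes the libraries numbered 2 lay below all others and those numbered 1 above.

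Nr1d1, the REV-ERB alpha gene that represses Arntl, had 9.27, 6.95, 14.4 and 16.7 CPM in YFP+ and 17.1, 9.25, 17.4 and 17.45 CPM in YFP- (range 1.10, edgeR adjusted p = 0.00331). Exons of Thra on the opposite strand cover 8.5% of its exon bases. Nr1d2, its paralogue, had a range of 0.65 (edgeR adjusted p = 0.00193). Bhlhe40, a repressor that competes for E-boxes, had 0.51 (edgeR adjusted p = 9.56e-04), Nfil3, which opposes DBP at D-boxes, 0.42 (edgeR adjusted p = 0.00124), and Nampt, an enzyme of NAD synthesis, 0.50 (edgeR adjusted p = 0.00921). Nfil3 and Nr1d2 kept their calls in all 12 fits with libraries left out. Without number 2, Usp2 (range 0.36, edgeR adjusted p = 0.250), Wee1 (0.17, 0.779), Nr1d1 (0.42, 0.415), Bhlhe40 (0.20, 0.271) and Nampt (0.28, 0.111) lost theirs. Nampt also lost its call without number 4 (range 0.25, edgeR adjusted p = 0.297), YFP+ replicate 4 (0.0964) or YFP- replicate 4 (0.0885). Ciart, whose promoter is printed above, had 2.31, 0.329, 1.80 and 0.970 CPM in YFP+ and 2.17, 0.586, 1.73 and 1.92 CPM in YFP-, from 8 to 62 counts, and did not pass (range 2.33, edgeR adjusted p = 0.121).

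Between the gates, 1 of these 19 genes was lower in YFP+ and 0 higher, where 3.34% of all tested genes were lower. With the block 5 were lower and 0 higher, where 7.85% of all genes were lower and 3.65% higher. Bhlhe40 had 111, 96.2, 129 and 118 CPM in YFP+ and 162, 120.2, 183 and 185 CPM in YFP-, and was lower in YFP+ in 4 of 4 pairs. YFP+ libraries averaged 113.5 ± 13.8 CPM, against 163 ± 30.2 CPM for YFP- (SD over 4 libraries each). Without the block its log2 fold change was -0.52 (SE 0.13, edgeR adjusted p = 0.0412). That call held in 2 of 8 fits without 1 library, those without YFP- replicate 2 or YFP+ replicate 3. With the block the log2 fold change was -0.51 (SE 0.06, edgeR adjusted p = 1.4e-06). Bhlhe40 was called in all 11 alternative runs that did not leave out a single library. Nfil3 had 115, 95.04, 91.7 and 118 CPM in YFP+ and 157, 118.5, 127 and 170.4 CPM in YFP-, with no overlap, as for 9.64% of all tested genes. Its log2 fold change was -0.45 (SE 0.12, edgeR adjusted p = 0.0527, or 6.83e-06 with the block).

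The other 3 genes lower with the block were Nr1d2, Rora and Nampt. Nr1d2 had a log2 fold change of -0.34 with the block (edgeR adjusted p = 0.00848, or 0.354 without it). Rora, which encodes the receptor that activates Arntl in place of REV-ERB, had -0.37 (edgeR adjusted p = 0.0363, or 0.0653 without it), and Nampt -0.22 (edgeR adjusted p = 0.0392, or 0.407 without it). All 3 were lower in YFP+ in 4 of 4 pairs. With DESeq2 and the block, Rora (adjusted p = 0.0743) and Nampt (adjusted p = 0.0529) lost their calls, and Bhlhe40, Nfil3 and Nr1d2 kept theirs. With the edgeR block but without both libraries numbered 2, Nampt lost its call (edgeR adjusted p = 0.0653) and Rora kept it (-0.26, edgeR adjusted p = 0.00622). In the authors' deposited table the adjusted p was 6.95e-11 for Bhlhe40, 4.99e-09 for Nfil3 and 0.0146 for Nr1d2. There it was 0.0906 for Rora and 0.082 for Nampt. The median log2 fold change of the 19 genes without the block was -0.17, against 0.00 over all genes tested.

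**Figure D4:**
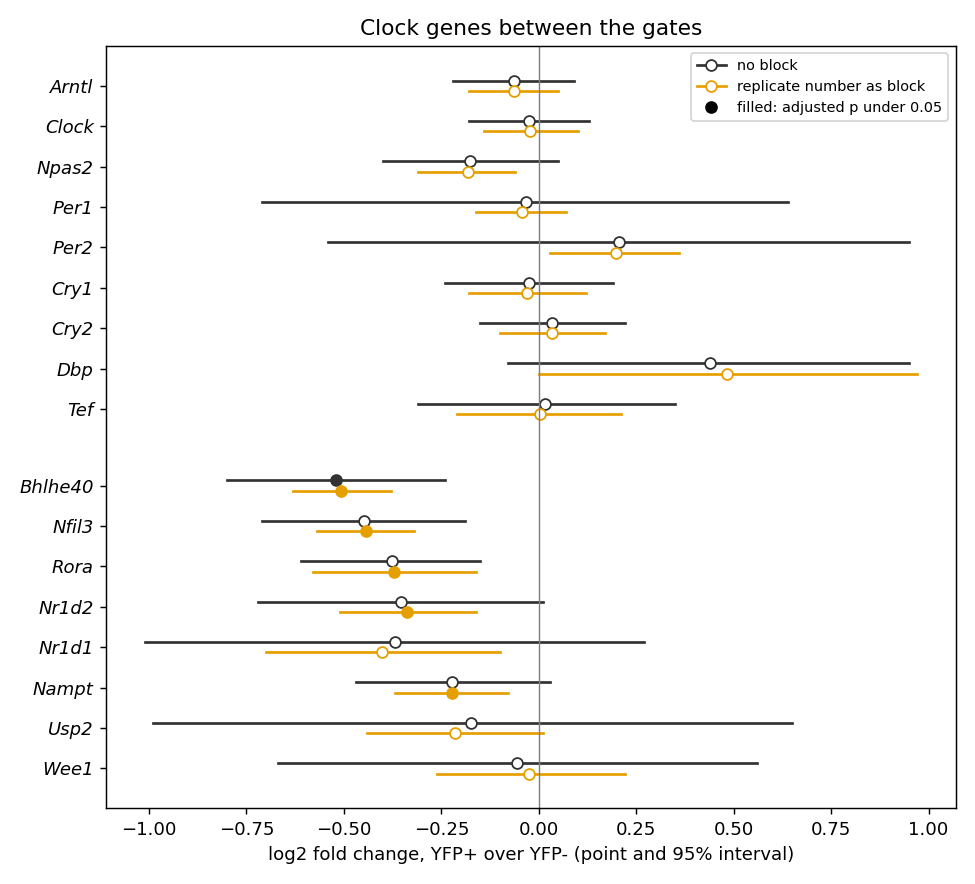
Log2 fold change of YFP+ over YFP- (horizontal axis; points are estimates and bars 95% intervals) for the 9 members (upper block) and 8 other clock genes called between gates or numbers (lower block), without the block (black) and with the replicate number as a block (orange); filled points have an edgeR adjusted p under 0.05. No member is filled in either fit, and the bars of Per1 and Per2 shrink with the block.

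Other groups of genes moved with the same contrasts. Between the gates, 9 of 10 glial, 5 of 10 epithelial, 2 of 7 fibroblast and 1 of 5 endothelial genes were lower in YFP+, and 2 of 8 smooth muscle genes were higher. With the block these counts were 9, 5, 5 and 3 lower and 7 higher. The summed epithelial level was 19.8 to 27.9 CPM in YFP+, against 41.8 to 89.6 CPM in YFP-. Between replicate numbers 6 of 12 early-response genes were called, and 7 of 8 smooth muscle, 2 of 5 haematopoietic, 2 of 5 endothelial, 2 of 7 fibroblast, 0 of 10 glial and 0 of 10 epithelial genes. The summed haematopoietic level was 337, 42.2, 130.5 and 205 CPM in YFP+ replicates 1 to 4 and 301, 82.2, 292 and 192 CPM in YFP-, so number 2 was lowest in each fraction. The summed smooth muscle level was 580, 878, 678 and 362 CPM in YFP+ and 407, 465.5, 438 and 187 CPM in YFP-, highest in number 2. Of the 6 early-response genes called, 5 were below their own mean over the numbers in number 2. On the log2 scale these were Egr2 (-0.45), Dusp1 (-0.39), Fos (-0.27), Zfp36 (-0.16) and Fosb (-0.02), and Jun (0.37) was above its mean. The early-response genes not called lay near their means there, from -0.05 (Junb and Nr4a1) to 0.06 (Jund), so the list as a whole was not low in number 2. The 12 genes' summed level was 8486, 8821, 8233 and 8763 CPM in YFP+ and 10560, 10650, 10790 and 12560 CPM in YFP-, and 7 of them were lower in YFP+ without the block and 11 with it. No gene of these lists was at 0 in all libraries. The part of these groups in the clock results was not tested.

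As a description, genes were ranked by Pearson's r of log2 CPM with a member over the 8 libraries, which share their gates and numbers. By the stated rule this was done for Dbp over 8652 genes of at least 10 CPM. Highest were Zfp746 (0.97), Thumpd2 (0.96), Dhx36 (0.95), Vps4b (0.95) and Mocs2 (0.94), and lowest were Whrn (-0.96), Akap1 (-0.95), Spon1 (-0.95), Misp (-0.93) and Carhsp1 (-0.93). No clock gene was among them, and Tef had 0.40 and Per2 -0.36. The same was done for Per2 after its values were seen. Mical2 and Snrpc (0.98 each) were highest and Klf6 (-0.98) lowest, and of the clock genes Wee1 had 0.87, Usp2 0.84 and Per1 0.81, while Hlf, a D-box factor, had -0.84 and Tef -0.81. The rest of the non-member clock genes called between numbers had lower r with Per2. These were Nr1d2 (0.38), Nr1d1 (0.36), Nampt (0.22), Nfil3 (0.19) and Bhlhe40 (0.17).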

How the data were processed

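Raw counts per gene and library are the authors' deposited values, whole numbers and not normalised. Per the submitters' processing notes, the tools were cutadapt (3.4), the aligner STAR (2.7.3a), the counter featureCounts (2.0.1) and DESeq2, and the build was GRCm38 (mm10). The strand setting and the annotation release were not given in the sources used here. Log2 fold changes and adjusted p-values of the authors' deposited table are credited where printed. Its normalised columns were not used. Per the labels' protocols, a SMARTer kit that keeps strand was used.

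The counts were then fitted with edgeR 4.0.16 (R 4.3.3), using its expression filter (16354 of 53801 genes tested, 23010 without a count), TMM scaling, robust quasi-likelihood F test, and Benjamini-Hochberg adjustment over all genes tested at 0.05. The main gate test had no block, since no label states that replicate numbers pair the libraries. Values in the text are from that fit unless the block is named. The test between replicate numbers had 3 degrees of freedom and the gate as a covariate. SEs are the absolute log2 fold change divided by the square root of F, and 95% intervals use the t distribution with edgeR's total degrees of freedom. These intervals are not adjusted for the number of genes tested. DESeq2 1.42.0 and limma 3.58.1 were alternatives.

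No label says what the replicate numbers share. Each library's deviation from its group mean was taken for the 5193 genes whose log2 CPM averaged over 5. It correlated at 0.60, 0.63, 0.39 and 0.58 for the same number and at -0.42 to 0.05 for different numbers, with the same values without the clock genes, so the numbers were taken as pairs. All pairs of libraries within a fraction differed by more than sampling noise. Since no label states that libraries are from different animals, the spread behind each p-value could be technical. In the gate test without the block it is the spread between the libraries of a fraction. In the test between numbers and the fits with the block, it is how far the difference between the gates varies from number to number. If both libraries of a number came from the same animals, the test between numbers would count them as separate replicates of that number.

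Named genes were all members, the listed clock genes called in either test, and the 5 genes most and least like Dbp; those chosen later are said to be so. The members and lists were chosen with earlier results of these data known. Gene positions and exon lengths on GRCm38 were read from the GENCODE M21 annotation, where 53706 gene identifiers were found, and promoter sequences from RefSeq on GRCm38.p6.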

Additional observations from a re-analysis of the deposited data

Results flagged for a closer look

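Of 38 sets of 4 values (the named clock genes and the library totals in each fraction), 4 held a library far from the other 3 of its fraction, where chance gives about 1 in 20, or 1.9. Tef was high in YFP+ replicate 2 at 35.7 CPM, against 21.9 to 23.9 CPM in the other YFP+ libraries. Cry1 was high in YFP- replicate 3 at 75.6 CPM, against 63.4 to 64.7 CPM in the other YFP- libraries. Nr1d1 was low in YFP- replicate 2 at 9.25 CPM, against 17.06 to 17.45 CPM in the other YFP- libraries. The total of YFP- replicate 4 was high at 28688906 counts, against 23272858 to 23894251 in the others of that fraction.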

How the results depend on the processing

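Between the gates 0 members were called under any alternative run, including removal of each library in turn (0 to 0) and the replicate block. All genes called numbered 697, and 1243 without a filter, 1100 with DESeq2, 1880 with the replicate block, 1875 with DESeq2 and the block, 1550 with the block and without both libraries numbered 2, and 427 to 672 without single libraries (427 without YFP+ replicate 3). Of the other clock genes 1 was called, and 2 with upper-quartile scaling, with a filter of 1 CPM in 4 libraries or without both libraries numbered 2, 3 with DESeq2 with or without the block, 4 without a filter or with the block and without number 2, 5 with the replicate block, and 0 to 2 without single libraries. The block changed no call of a member.

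Some member estimates near 0 turned sign, none of them called: Tef with limma-voom (-0.009), without both libraries numbered 2 Cry1 (0.045) and Tef (-0.048), and with the block as well Per1 (0.002), Cry1 (0.046) and Tef (-0.047). Without single libraries the log2 fold change ran from -0.186 to 0.156 for Per1, -0.040 to 0.404 for Per2, -0.084 to 0.057 for Cry1, -0.041 to 0.013 for Clock, -0.162 to 0.135 for Tef, -0.616 to 0.083 for Ciart, -0.364 to 0.057 for Usp2 and -0.258 to 0.102 for Wee1.

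Between replicate numbers 4 members and 7 other clock genes were called. The scaling, filter and tool alternatives gave 4 members and 7 or 8 others. Leaving out single libraries or numbers gave 2 to 4 members, 2 to 8 others and 860 to 1482 of all genes, against 1504; 860 genes, 2 members and 2 others were left without number 2, and 973 genes without number 4. The cause of these changes was not tested. The fits without both libraries numbered 2 and DESeq2 with the block were chosen after seeing the data. Counts were low for Dbp (71 to 207 per library) and Ciart (8 to 62), and the part of depth in their estimates was not tested.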
